A study of Homo sapiens with 24 samples.

Results

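The transfection by sorbitol interaction asks whether the response of chondrocytes to hyperosmotic media differed between cells transfected with *WNK2* and untransfected cells. It was measured over all wild-type-genotype libraries, 16 of the 24 in the series. All came from T/C-28a2 cells, an immortalised human costal chondrocyte line with the unedited *WNK2* locus. The libraries labelled WT Ctr were untransfected cells in isotonic media, and for those labelled WT Sor untransfected cells spent 7 days under 100 mM sorbitol. The libraries labelled WNK2 trans Ctr and WNK2 trans Sor were cells given a WNK2 expression plasmid for 48 hours by lipofection and then kept in isotonic or in sorbitol media. There were 4 libraries per group. For each gene the interaction is the log2 sorbitol change with transfection minus the log2 sorbitol change without it, written with an approximate standard error. A positive interaction therefore marks a gene whose sorbitol change was higher with transfection.

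WNK kinases are serine-threonine kinases that sense chloride and osmotic pressure. *STK39* and *OXSR1* encode the effector kinases SPAK and OSR1. These are switched on by WNKs when cells shrink, and ion uptake through cation-chloride cotransporters then brings volume back. Cartilage cells live in a matrix whose osmolarity changes with loading. They keep up a matrix of type II collagen and aggrecan, and in osteoarthritis they lose it while making inflammatory cytokines and matrix-degrading proteases.

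*WNK2* (ENSG00000165238, chromosome 9, 93184916 to 93320572 on GRCh38) itself had one of the largest interactions. Its normalised read counts, scaled by each library's effective size to a library of mean size, were 2799.8, 1335, 1985 and 3121 in the 4 WT Ctr libraries. They were 266, 296, 295 and 260.1 in WT Sor. In the libraries labelled WNK2 trans Ctr they were 276, 219, 167 and 266, and in WNK2 trans Sor they were 3534, 2023, 2452 and 3159. The libraries labelled WT Ctr and WNK2 trans Sor were thus all high, and those labelled WT Sor and WNK2 trans Ctr all low. The isotonic libraries labelled as transfected went against their label, since *WNK2* was lower there than in the untransfected isotonic libraries (log2 −3.32, adjusted p = 4.70e-08 by the quasi-likelihood test of edgeR, adjusted by Benjamini-Hochberg across every tested gene). The interaction of *WNK2* was 6.64 ± 0.34 (edgeR adjusted p = 1.29e-10). Reads from the plasmid and from the chromosomal gene cannot be told apart in these counts.

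That level bears on how the contrast is read. By its arithmetic, the interaction adds the log2 levels of the libraries labelled WT Ctr and WNK2 trans Sor and subtracts those labelled WT Sor and WNK2 trans Ctr. It therefore sets the 8 libraries with high *WNK2* against the 8 with low *WNK2*, with sorbitol balanced between them. Were the labels of both isotonic groups exchanged, the same sum would be 2 times the average transfection effect, and the average transfection effect would become the interaction divided by 2. The sorbitol change without transfection would then set sorbitol alone against transfection alone. That with transfection would set both treatments against untreated cells, and the transfection change in isotonic media would turn its sign. Which case holds was not tested, so the groups are called here by their labels. The untransfected groups had no empty plasmid, and lipofection cannot be told apart from the *WNK2* it delivered. The p-values set each difference against the spread between these libraries.

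Total counts per library ran from 14153002 to 23239491. Of 15 chondrocyte markers, 10 passed the filter on low counts, *SOX9* was listed at 0 counts in every library, and *SOX6*, *COL9A1*, *COL11A1* and *CNMD* stayed below 1 CPM (counts in each library scaled to one fixed total) throughout. The leukocyte marker *PTPRC* and the epithelial markers *KRT5*, *KRT14* and *KRT19* also stayed below 1 CPM. The epithelial markers *ESRP1* and *CLDN4* had group means of 2.38 to 5.36 CPM and 2.19 to 3.25 CPM. The monocyte marker *CD14* had means of 8.31 CPM (WT Ctr), 10.6 CPM (WT Sor), 16.2 CPM (WNK2 trans Ctr) and 4.56 CPM (WNK2 trans Sor), with an interaction of −2.23 (edgeR adjusted p = 9.19e-06), and the part of such cells in the results was not tested. One library, WT Ctr replicate 2, stood apart from its group on the second principal component, at −30.6 against −10.5 to −5.42 for the other WT Ctr libraries. Replicates also differed in spread between groups. Between pairs of libraries, chi-square per degree of freedom ran from 2.30 to 5.14 in WT Sor and from 19.6 to 64.2 in WT Ctr. It ran from 6.35 to 54.1 in WNK2 trans Ctr and from 12.3 to 69.1 in WNK2 trans Sor. The fit takes a single spread per gene over all groups. On the first component, which held 65.3% of the variance of the 500 most variable genes, the groups lay in the order WNK2 trans Ctr, WT Ctr, WT Sor and WNK2 trans Sor. The groups did not overlap on it, and both transfected groups lay at its ends.

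**Figure D1:**
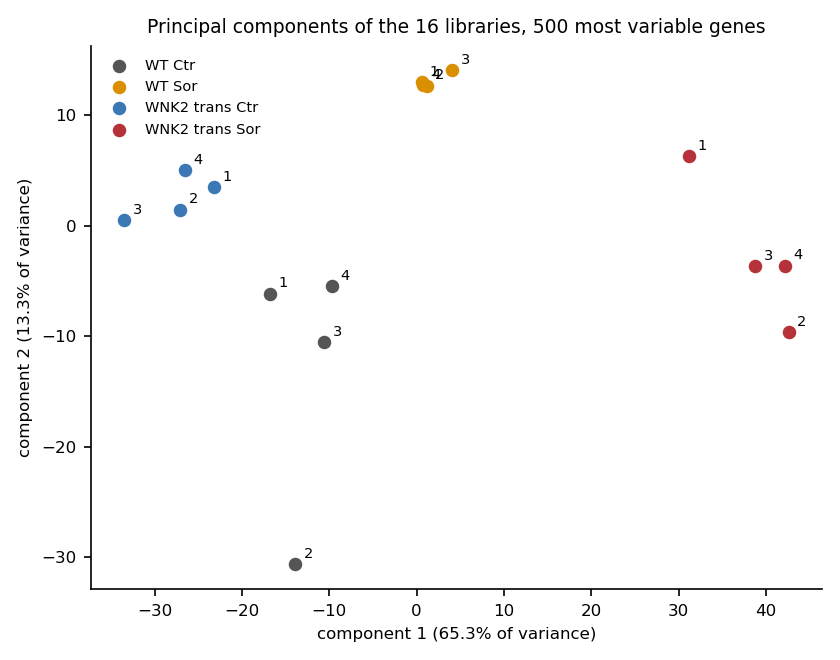
Principal components of the 16 libraries from the 500 most variable genes. Each point is a library, coloured by its labelled group and numbered by replicate. The axes are component 1 (65.3% of the variance) and component 2 (13.3%). The libraries labelled WNK2 trans Ctr lie at the left end and those labelled WNK2 trans Sor at the right end, and WT Ctr replicate 2 lies below its group.

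The interaction was called (edgeR adjusted p under 0.05) in 4574 of 15738 tested genes, or 29.1%. It was higher in 2244 genes (14.3%) and lower in 2330 (14.8%), and 2486 of the called genes had an interaction of at least 1 on the log2 scale. Without WT Ctr replicate 2 the count was 4260. Averaged over transfection, sorbitol changed 5715 genes (36.3%), with 17.9% higher and 18.4% lower, whereas transfection averaged over both media changed 401 (2.55%), 1.47% higher and 1.07% lower. The latter count was 213 without WT Sor replicate 4 and 928 without WNK2 trans Sor replicate 1. The median interaction over all tested genes was −0.01.

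The arms, which follow the labels as given, had different counts. Sorbitol without transfection changed 2718 genes (17.3%), raising 8.18% and lowering 9.09% of those tested. With transfection it changed 6576 (41.8%), raising 20.6% and lowering 21.2%. The count without transfection fell to 1745 without WT Ctr replicate 2 and to 1616 without WT Sor replicate 3. Transfection changed 1333 genes (8.47%) in isotonic media, or 879 without WNK2 trans Ctr replicate 4, and 3870 (24.6%) under sorbitol. It raised 3.77% and lowered 4.7% of tested genes in isotonic media, and 11.8% and 12.8% under sorbitol. The log2 sorbitol changes of the arms, which share no library, had a Pearson correlation of 0.22 across the 15738 genes and a Spearman correlation of 0.12. Those of transfection in isotonic and in sorbitol media, which also share none, had −0.50 and −0.51. Genes are not independent replicates, and these values describe the libraries.

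Among the 4574 genes with a called interaction, 2892 (63.2%) had a sorbitol change called only with transfection and 673 (14.7%) only without it. A further 500 genes were changed by sorbitol in opposite directions in the arms, 239 of them falling without and rising with transfection. The same direction in both was called for 162, 148 of these moving further with transfection, and 347 were called in neither. Over all tested genes, sorbitol was called only with transfection in 32.8%, only without it in 8.29%, in opposite directions in 3.18% and in the same direction in 5.81% (914 genes). A called interaction requires the arms to differ, so it selects against the same direction. For transfection in the isotonic and sorbitol media, 885 of the called genes had opposite directions and 1 had the same direction. Over all tested genes these counts were 885 (5.62%) and 20 (0.127%), and the same selection applies.

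All 8 libraries labelled WT Ctr and WNK2 trans Sor lay above all 8 others in 224 genes (1.42% of those tested) and below them in 285 (1.81%). By a looser criterion, the order of the group means alone, in 2707 of the 4574 called genes (59.2%) WNK2 trans Sor and WNK2 trans Ctr held the highest and the lowest group mean. Over all tested genes that share was 37.4%, with WNK2 trans Sor highest in 17.3% and lowest in 20.1%.

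**Figure D2:**
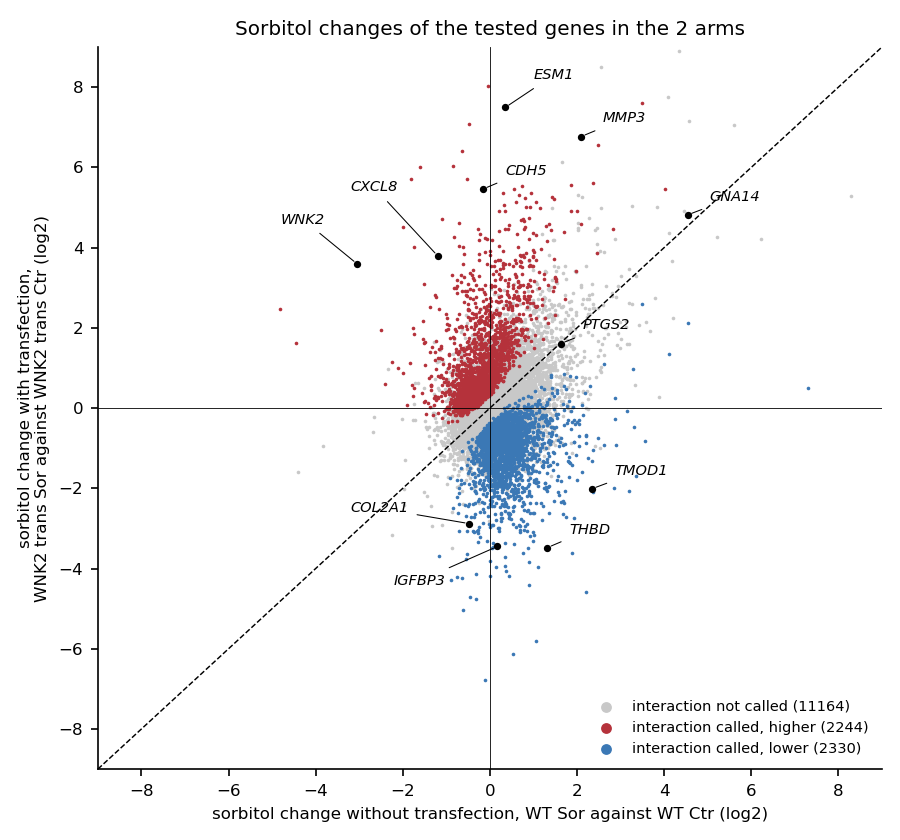
Sorbitol changes of the 15738 tested genes, with the log2 change of WT Sor against WT Ctr on the horizontal axis and that of WNK2 trans Sor against WNK2 trans Ctr on the vertical axis. Points are genes, coloured by the interaction call, the dashed line marks equal changes, and 2 genes lie outside the axes. The called genes spread along the vertical axis more than along the horizontal one, and *GNA14* and *PTGS2* lie near the dashed line.

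The 12 coding genes with the smallest p among those with a higher interaction of at least 1 and a mean log2 CPM of at least 2 were *CXCL8*, *CDH5*, *ANXA3*, *F3*, *INHBA*, *CCBE1*, *SERPINB7*, *ESM1*, *WNK2*, *GREM1*, *DENND2A* and *CXCL1*. *CXCL8*, the neutrophil chemokine interleukin 8, led them. Its normalised counts were 1071, 1732, 1417 and 1202 in WT Ctr and 535, 609.6, 597 and 625 in WT Sor. With transfection they were 239.8, 242, 241 and 234 in isotonic and 3286, 4054, 2766 and 3132 in sorbitol media. No group overlapped another, sorbitol lowered the gene without transfection (log2 −1.196) and raised it with transfection (log2 3.79), and the interaction was 4.99 ± 0.20 (edgeR adjusted p = 9.35e-12).

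*CDH5*, which encodes VE-cadherin, had 138, 148, 185 and 237 normalised counts in WT Ctr, 155, 178, 154 and 148 in WT Sor, 24.3, 15.8, 17.4 and 20 in WNK2 trans Ctr and 886, 722, 909 and 873 in WNK2 trans Sor. Both untransfected groups overlapped, while the transfected groups lay below and above them, and the interaction was 5.62 ± 0.25 (edgeR adjusted p = 2.79e-11). *ESM1*, the secreted proteoglycan endocan, had the same layout, with 45.8, 25.2, 40.3 and 66.8 in WT Ctr and 50.1, 45.4, 68.6 and 61 in WT Sor against 10.4, 4.5, 5.1 and 6.3 in WNK2 trans Ctr and 1047, 1115, 1192 and 1321 in WNK2 trans Sor. Its interaction of 7.14 ± 0.37 (edgeR adjusted p = 1.27e-10) was the largest of the 12. Of 6 endothelial markers, *CDH5* was the only one called higher, *PECAM1* had an interaction of −0.30 (edgeR adjusted p = 0.305), *VWF* one of −0.02, *CLDN5* one of −1.91 (edgeR adjusted p = 0.0536), and *KDR* and *TEK* stayed below 1 CPM. Their summed level was 102.8 to 109.7 CPM in WNK2 trans Sor, 62.4 to 71.3 in WT Sor and 26.2 to 41.7 in the isotonic groups, and its part in these results was not tested.

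*F3*, tissue factor, which starts coagulation, had 237, 294, 273 and 326 normalised counts in WT Ctr, 189, 221, 243 and 197 in WT Sor, 123, 134, 144 and 139 in WNK2 trans Ctr and 1195, 1392, 1284 and 1560.4 in WNK2 trans Sor. The untransfected groups overlapped, with the transfected groups below and above them, and the interaction was 3.74 ± 0.18 (edgeR adjusted p = 8.09e-11). *INHBA*, the activin A subunit, was abundant in every group, at 3611, 3718, 3798 and 4558 in WT Ctr, 2719, 2659, 2881 and 2831 in WT Sor, 1766, 1724, 1252 and 1643 in WNK2 trans Ctr and 9368, 9645, 9736 and 10052 in WNK2 trans Sor. Its groups did not overlap, and the interaction was 3.103 ± 0.15 (edgeR adjusted p = 8.65e-11). The serpin *SERPINB7* and the lymphangiogenic factor *CCBE1* had interactions of 5.81 ± 0.30 and 4.14 ± 0.21, and the calcium-dependent phospholipid-binding protein *ANXA3* one of 3.55 ± 0.16. All 12 kept an adjusted p under 0.05 in every one of the 25 alternative fits that tested them. The fit on genes with at least 10 counts in every library left out *ESM1* and *SERPINB7*, which fell below that in WNK2 trans Ctr libraries. Another 72 non-coding or unnamed genes met the size and level criteria, led by the long non-coding RNA ENSG00000231405 (interaction 2.94 ± 0.17), and followed by a gene on chromosome 10 (ENSG00000276850, 1.67 ± 0.15) and the microRNA host gene *MIR222HG* (2.76 ± 0.26).

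The corresponding 12 genes with a lower interaction were *THBD*, *SPRY1*, *ITGA11*, *SULF1*, *C7*, *TMOD1*, *IGFBP3*, *COL3A1*, *HAS2*, *KLF9*, *POSTN* and *KCNE4*. *THBD* encodes thrombomodulin, an anticoagulant receptor on the cell surface. It had 796, 825, 761 and 842 normalised counts in WT Ctr and 1898, 1764, 2238 and 2138 in WT Sor. With transfection it had 5924, 4208, 4904 and 5201 in isotonic and 526, 382, 444 and 464 in sorbitol media. The groups did not overlap, and their order was the reverse of that of *CXCL8*. Sorbitol raised *THBD* without transfection (log2 1.32) and lowered it with transfection (log2 −3.48), with an interaction of −4.798 ± 0.18 (edgeR adjusted p = 5.00e-12).

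*SPRY1*, a feedback inhibitor of receptor tyrosine kinase signalling, had 604, 677, 612 and 568 normalised counts in WT Ctr, 1247, 1117, 1239 and 1293 in WT Sor, 2025, 1899, 1932 and 2012 in WNK2 trans Ctr and 368, 297, 312 and 311 in WNK2 trans Sor. Here too no group overlapped another, and the interaction was −3.61 ± 0.14 (edgeR adjusted p = 5.12e-12). *SULF1*, an extracellular sulfatase of heparan sulfate, instead mirrored *WNK2*. It had 4766, 5848, 5648 and 5379 in WT Ctr and 4999.8, 5029, 4265 and 4085 in WNK2 trans Sor, which overlapped, against 15806, 15778, 18218 and 17219.8 in WT Sor and 17666, 15113, 14376 and 17315 in WNK2 trans Ctr, which also overlapped (interaction −3.44 ± 0.15, edgeR adjusted p = 2.00e-11). The actin-capping protein gene *TMOD1* was also lower in WT Ctr and WNK2 trans Sor, with group means of 174 ± 28.6 in WT Ctr and 175 ± 30 in WNK2 trans Sor against 884 ± 45.1 in WT Sor and 706 ± 74.2 in WNK2 trans Ctr (SD, n = 4), and an interaction of −4.36 ± 0.20.

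*IGFBP3*, a carrier of insulin-like growth factors, was set apart by transfection in isotonic media. Its counts were 566, 773, 582 and 572 in WT Ctr, 774, 691, 678 and 667 in WT Sor, 3236, 3718, 4131 and 3271 in WNK2 trans Ctr and 307, 285, 377 and 344 in WNK2 trans Sor. The untransfected groups overlapped and sorbitol did not pass the test there (log2 0.17, edgeR adjusted p = 0.365), whereas with transfection it lowered the gene by log2 −3.45 and the interaction was −3.62 ± 0.18. The collagen receptor subunit *ITGA11* (−3.24 ± 0.13), the hyaluronan synthase *HAS2* (−3.16 ± 0.16), the matricellular protein *POSTN* (−2.96 ± 0.17), the complement component *C7* (−5.49 ± 0.25), the transcription factor *KLF9* (−2.53 ± 0.14) and the potassium channel subunit *KCNE4* (−4.83 ± 0.28) completed the group. All 12 were called in each of the 25 alternative fits. Of the 64 non-coding or unnamed genes that met the same criteria, *GATA2-AS1* (−1.97 ± 0.18), *APCDD1L-DT* (−1.93 ± 0.19) and *HOTAIR* (−2.26 ± 0.23) had the smallest p. Reads of an antisense RNA and its partner cannot be told apart, as strand-specific counting is not given in the sources used here.

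**Figure D3:**
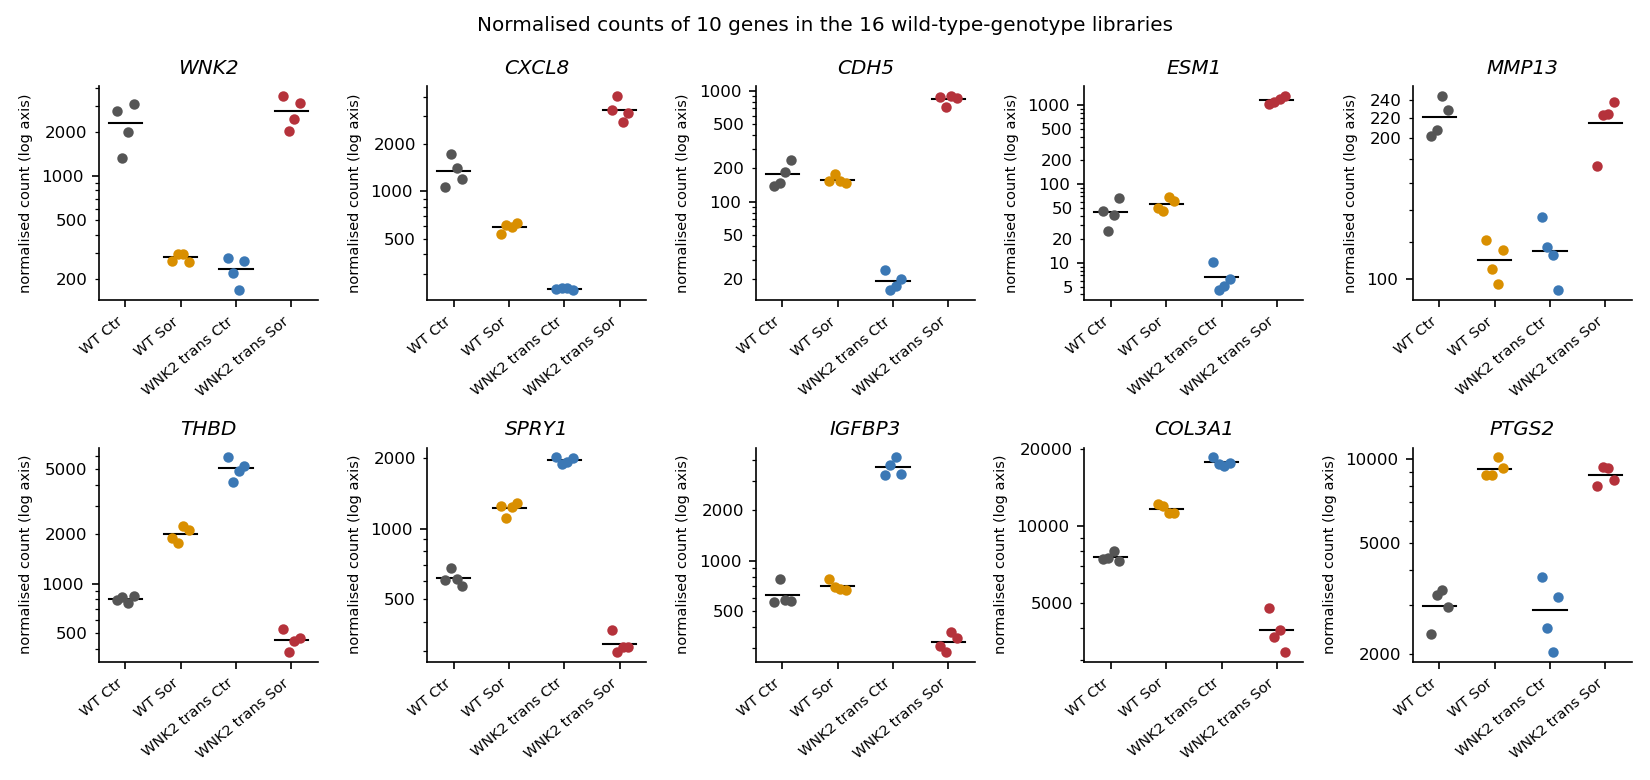
Normalised counts (log axis) of 10 genes in the 16 libraries, 4 per labelled group, with each point a library and each bar the group mean. *WNK2* and *MMP13* are high in WT Ctr and WNK2 trans Sor, *CXCL8* and *THBD* run in reverse order of each other, and *PTGS2* follows sorbitol in both arms.

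Gene lists are described next, by how many members had a called interaction in each direction. Members named beyond the 5 with the smallest p in a list were picked after their values were seen. Cytokines and targets of NF-kB, the transcription factor that drives inflammatory genes, mostly had a higher interaction. Of 40 tested members 23 were called higher and 5 lower, 57.5% and 12.5%, against 14.3% and 14.8% of all tested genes, and the median interaction was 0.90 against −0.01. Sorbitol raised 24 of them and lowered 4 with transfection, and raised 6 and lowered 7 without it. *CSF2*, the growth factor GM-CSF, had group means of 8.7 normalised counts in WT Ctr, 6 in WT Sor, 1.3 in WNK2 trans Ctr and 81.6 in WNK2 trans Sor. It was high only in the transfected sorbitol group, through which it passed the filter on low counts, so these levels are a description. *CXCL1*, a ligand of the same receptor as CXCL8, had 1483, 1949, 1185 and 1237 in WT Ctr, 803, 917, 823 and 876 in WT Sor, 283, 266, 342 and 251 in WNK2 trans Ctr and 2888, 2337, 2072 and 1782 in WNK2 trans Sor. The WT Ctr and WNK2 trans Sor libraries overlapped and lay above the others, with WNK2 trans Ctr lowest, and the interaction was 3.77 ± 0.23. *CXCL1*, *CXCL2* and *CXCL3* are close copies whose reads could be divided between them.

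*IL1B* had 153, 122, 83.5 and 124 normalised counts in WT Ctr, 168, 196, 237 and 219.7 in WT Sor, 73, 50.6, 92 and 89.3 in WNK2 trans Ctr and 1257, 996, 853 and 999 in WNK2 trans Sor. Only the isotonic groups overlapped. Sorbitol raised this pyrogenic cytokine in both arms, by log2 0.77 without and 3.76 with transfection, and the difference was 2.99 ± 0.28 (edgeR adjusted p = 3.89e-07). The interactions were 4.12 ± 0.33 for *CSF3*, 2.19 ± 0.27 for *LIF*, 1.795 ± 0.21 for *IL6* and 1.56 ± 0.19 for *CCL2*. Among inhibitors and adaptors, *BIRC3* (2.22 ± 0.35), *NFKBIZ* (0.86 ± 0.14) and *RIPK2* (1.098 ± 0.17) were called higher, and *TNFAIP3*, a deubiquitinase that restrains NF-kB, was called lower (−0.58 ± 0.16). The NF-kB subunit gene *NFKB1* was called higher (0.67 ± 0.13), while *RELA* had an interaction of −0.31 ± 0.23 (edgeR adjusted p = 0.337). Going the other way, the transcription factor *CEBPD* (−3.26 ± 0.47), the interleukin 1 receptor *IL1R1* (−2.54 ± 0.32), the adhesion molecule *VCAM1* (−1.56 ± 0.16) and *CSF1* (−1.31 ± 0.21) were called lower. *PTGS2*, the inducible cyclooxygenase, had an interaction of −0.02 ± 0.22, and its levels followed sorbitol in both arms.

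The promoters of the leading chemokines are printed as a description, since NF-kB is known to act at them. Its part in the changes of these genes was not tested. RefSeq promoter windows (GRCh38.p14, 250 bases before to 50 after the annotated start) were at hand for 30 of the 40 tested members. The palindromic kappa-B motif GGAANTTCC was searched on both strands. It lay in the window of 10 of the 30 members (33.3%), against 0.967% of all 27305 promoter windows, and in 6 of the 17 matched members with a higher interaction. The list is made in part of known NF-kB targets, and a match describes letters only. The last 160 bases before the start are given for *CXCL8* (chr4:73740409-73740568, plus strand) and *CXCL1* (chr4:73869233-73869392, plus strand), with the motif in capitals.
CXCL8: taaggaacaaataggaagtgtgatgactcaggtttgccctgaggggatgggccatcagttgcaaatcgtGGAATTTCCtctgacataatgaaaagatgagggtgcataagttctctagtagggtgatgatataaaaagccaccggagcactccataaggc
CXCL1: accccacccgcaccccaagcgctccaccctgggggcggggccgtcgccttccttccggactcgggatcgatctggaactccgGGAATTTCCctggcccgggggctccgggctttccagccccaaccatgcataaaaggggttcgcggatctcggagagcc

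Interferon-stimulated genes, which encode antiviral effectors and sensors, also mostly had a higher interaction. Of 34 tested members 22 were called higher (64.7%) and 2 lower (5.88%), with a median interaction of 0.93. Without transfection sorbitol raised 5 and lowered 4 of them, and with transfection it raised 24 and lowered 2. *RSAD2*, the antiviral enzyme viperin, had 10.9, 12.1, 13.1 and 6.1 normalised counts in WT Ctr, 15, 16.6, 13.2 and 13.1 in WT Sor, 3.5, 3, 6.1 and 3.2 in WNK2 trans Ctr and 97.5, 96.8, 105 and 78.6 in WNK2 trans Sor. Its transfected sorbitol libraries lay above all others, and the interaction was 4.11 ± 0.44 (edgeR adjusted p = 1.50e-06). *IFIH1*, a sensor of double-stranded RNA, had 251, 369.7, 300 and 182 in WT Ctr, 265, 300.4, 311 and 274 in WT Sor, 161, 177, 156 and 134 in WNK2 trans Ctr and 692, 759.7, 741 and 862 in WNK2 trans Sor. The untransfected groups overlapped, and the interaction was 2.22 ± 0.24 (edgeR adjusted p = 1.50e-06). *HERC6* (2.54 ± 0.23), the deconjugase *USP18* (2.36 ± 0.25) and the GTPase *MX1* (2.21 ± 0.26) were also higher. The median log2 transfection change of the list was −0.08 in isotonic media and 0.84 under sorbitol. The count of members called lower ran from 0 to 3 when single libraries were left out.

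The interferon-stimulated response element, searched on both strands as GAAA, any 2 bases and GAAA, lay in 17 of the 27 matched interferon promoters (63.0%) and in 3.65% of all windows. It was found in 12 of the 18 matched members with a higher interaction. The list was chosen as interferon-stimulated genes, so this share is not independent of that choice, and a match describes letters only. As members of the group with the smallest p among those with a match outside the transcribed part, *HERC5* (chr4:88456959-88457118, plus strand) and *IFIH1* (chr2:162318685-162318844, minus strand) are shown over the 160 bases before the start, with matches on either strand in capitals. Overlapping matches run together.
HERC5: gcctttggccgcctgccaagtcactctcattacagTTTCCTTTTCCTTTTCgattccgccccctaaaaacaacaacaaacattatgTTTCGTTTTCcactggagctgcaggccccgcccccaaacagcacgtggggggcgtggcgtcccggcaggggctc
IFIH1: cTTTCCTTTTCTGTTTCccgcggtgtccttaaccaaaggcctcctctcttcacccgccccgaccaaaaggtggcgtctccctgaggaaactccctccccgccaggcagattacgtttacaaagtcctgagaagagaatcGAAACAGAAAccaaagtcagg

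Genes of DNA replication and mitosis differed in direction between the arms. Of 56 tested members sorbitol lowered 41 without transfection (median log2 −0.58), and with it lowered 9 and raised 19 (median 0.19). The interaction was called higher in 38 (67.9%) and lower in 3 (5.36%), with a median of 0.78. *BUB1*, a spindle checkpoint kinase, had 2211, 3146, 2757 and 2569 normalised counts in WT Ctr, 1556, 1537, 1441 and 1488 in WT Sor, 1601, 1597, 1368 and 1571 in WNK2 trans Ctr and 1981, 2428, 2428 and 2230.3 in WNK2 trans Sor. It followed *WNK2*, since all WT Ctr and WNK2 trans Sor libraries lay above all others, with an interaction of 1.39 ± 0.15 (edgeR adjusted p = 2.19e-06). *CCND1*, cyclin D1, which drives entry into S phase, had the largest interaction of the list, with group means of 1855 in WT Ctr, 1576 in WT Sor, 857 in WNK2 trans Ctr and 4722 in WNK2 trans Sor (2.699 ± 0.21). *ORC6* of the origin recognition complex (1.79 ± 0.20), the kinase *TTK* (1.502 ± 0.22) and the B-type cyclin *CCNB2* (1.44 ± 0.22) were higher too. Cyclin E1 (*CCNE1*), which acts at the start of replication, was lower (−0.599 ± 0.17). The count of members called lower was 1 without WT Sor replicate 1, without WT Sor replicate 2 and without WNK2 trans Ctr replicate 2. In bulk RNA a smaller share of dividing cells and less RNA per dividing cell cannot be told apart.

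Cholesterol and fatty acid synthesis genes showed a smaller shift of the same sign. The interaction was higher in 16 of 32 (50%) and lower in 1 (3.12%), with a median of 0.51. Sorbitol raised 18 and lowered 1 with transfection, and lowered 4 without it. *HSD17B7* (1.79 ± 0.23), the methylsterol oxidase *MSMO1* (1.27 ± 0.17) and *HMGCS1*, which makes HMG-CoA (1.22 ± 0.22), led the list. *SREBF2*, a transcription factor that regulates the pathway, had −0.31 ± 0.15 (edgeR adjusted p = 0.123). The count of members called lower ran from 0 to 2 when single libraries were left out. The sterol regulatory motif TCACNCCAC lay in 1 of 24 matched promoters (4.17%) and in 1.15% of all windows. The match was in *SREBF2*, which was not called, and 0 of the 12 matched members called higher held it. Heat shock genes had a median of 0.38, with 8 of 19 called higher (42.1%), among them the chaperones *HSP90AA1* (0.93 ± 0.13) and *HSPA8* (0.62 ± 0.17), and 2 lower, *HSPB1* (−1.37 ± 0.36) and *HSPA2* (−1.04 ± 0.13). Sorbitol lowered 9 of them and raised 1 without transfection.

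Cartilage matrix genes went the other way. Of 19 tested members, 14 were called lower (73.7%) and 2 higher (10.5%), the largest lower share of any list, and the median interaction was −1.94. Sorbitol raised 1 of them without transfection, and with transfection it lowered 14 and raised 3. *COL2A1*, type II collagen, had 104, 50.5, 62.4 and 86.3 normalised counts in WT Ctr and 40, 64.3, 64.9 and 47.9 in WT Sor. It had 149, 169, 177 and 163 in WNK2 trans Ctr and 20.2, 18.1, 23.4 and 27 in WNK2 trans Sor. The untransfected groups overlapped, the transfected isotonic libraries lay above and the transfected sorbitol libraries below them, and the interaction was −2.403 ± 0.33 (edgeR adjusted p = 2.31e-05). *ACAN*, aggrecan, had 69.8, 16.5, 63.4 and 69.3 in WT Ctr, 116, 99.8, 92.1 and 104 in WT Sor, 207, 120, 116 and 130.3 in WNK2 trans Ctr and 30.3, 20.8, 17.5 and 41.4 in WNK2 trans Sor (−3.28 ± 0.48, edgeR adjusted p = 5.02e-05). The WT Ctr libraries were spread widely and overlapped those of WNK2 trans Sor, and the other groups lay above both.

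Further down the list, *COL9A3* (−3.96 ± 0.52), *PRG4*, which encodes the lubricant lubricin (−3.97 ± 1.12), *COMP* (−2.37 ± 0.67) and *MATN3* (−2.33 ± 0.54) were lower. Most of these genes had few counts, and *COMP* had 15.7, 0, 5.8 and 12.7 in WNK2 trans Sor. *HAPLN1*, which links aggrecan to hyaluronan (1.62 ± 0.19), and *RUNX2*, a driver of hypertrophy (0.68 ± 0.17), were the members called higher. Of the 10 tested chondrocyte markers 7 were called lower and 1, *HAPLN1*, higher. The summed level of all 15 was nevertheless highest in WNK2 trans Sor, at 120 to 173 CPM. It was 105 to 115 CPM in WT Ctr, 111 to 117 CPM in WT Sor and 96.8 to 110 CPM in WNK2 trans Ctr. *HAPLN1* had the largest group means of these markers, 44.4 to 123 CPM. Of the 5 tested fibroblast markers 4 were called lower, with *THY1* listed at 0 and *COL1A2* below 1 CPM throughout. Their summed level was 5373 to 6156 CPM with transfection alone and 1196 to 1923 CPM with transfection and sorbitol. Untransfected libraries had 2674 to 3789 CPM in isotonic and 3871 to 4045 CPM in sorbitol media. It moved with the matrix lists, with which it shares *COL1A1*, *COL3A1* and *LUM*, and its part in these results was not tested.

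The list of fibrillar and basement membrane collagens also holds other matrix proteins and collagen-modifying enzymes. It had 23 of 34 members called lower (67.6%) and 3 higher (8.82%), with a median of −1.01. Sorbitol raised 11 of them without transfection, and raised 4 and lowered 22 with it. *COL3A1* had 7399.7, 7526, 7950 and 7311 normalised counts in WT Ctr, 12148, 12014, 11239 and 11238 in WT Sor, 18599, 17509, 17193 and 17685 in WNK2 trans Ctr and 4789, 3684, 3910.5 and 3213 in WNK2 trans Sor. No group overlapped another, and the interaction was −2.81 ± 0.14 (edgeR adjusted p = 1.27e-10). *COL1A1*, the main chain of type I collagen, had group means of 48809, 50379.7, 80643 and 19589 in WT Ctr, WT Sor, WNK2 trans Ctr and WNK2 trans Sor (−2.09 ± 0.21). The proteoglycan *VCAN* (−2.18 ± 0.32), the basement membrane chains *COL4A1* (−1.77 ± 0.14) and *COL18A1* (−2.38 ± 0.47) and the matricellular protein *THBS2* (−3.43 ± 0.44) were lower. *COL8A1* (1.04 ± 0.24) and *COL13A1* (1.71 ± 0.29) were higher. The lysyl hydroxylases *PLOD1*, *PLOD2* and *PLOD3*, which modify collagen, lay between −0.31 and −0.201 and did not pass the test.

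Matrix proteases divided by member. Of 26 tested, 14 were called lower and 8 higher, 53.8% and 30.8%. *MMP3*, stromelysin 1, had 2.2, 4.4, 7 and 4.9 normalised counts in WT Ctr, 22, 16.6, 22.6 and 19.7 in WT Sor, 4.6, 3, 2 and 5.3 in WNK2 trans Ctr and 252, 369, 582 and 444 in WNK2 trans Sor. Sorbitol raised it in both arms and further with transfection (4.67 ± 0.61, edgeR adjusted p = 1.58e-05). *MMP9*, gelatinase B, had 121, 63.6, 66.4 and 109 in WT Ctr, 171, 191, 162 and 146 in WT Sor, 57.9, 45.3, 53.2 and 59.9 in WNK2 trans Ctr and 818, 465, 629.7 and 598 in WNK2 trans Sor (2.65 ± 0.30), with the sorbitol libraries above the isotonic ones in each arm. *MMP13*, the collagenase of type II collagen, differed from both in following *WNK2*: it had 202, 207, 246 and 228 in WT Ctr and 174, 223, 224 and 238 in WNK2 trans Sor, against 121, 105, 97.8 and 116 in WT Sor and 136, 117, 112 and 94.6 in WNK2 trans Ctr. The first and second pair did not overlap (1.91 ± 0.21, edgeR adjusted p = 1.81e-06).

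Among the aggrecanases and their relatives, *ADAMTS4* had −1.21 ± 0.82 (edgeR adjusted p = 0.286), and *ADAMTS1* (1.198 ± 0.15) and *ADAMTS6* (3.45 ± 0.25) were higher. *ADAMTS2*, which trims procollagen (−2.65 ± 0.40), the membrane protease *MMP14* (−1.15 ± 0.25), the serine protease *HTRA1* (−1.66 ± 0.15) and cathepsin K (*CTSK*, −1.07 ± 0.24) were lower. *MMP2* had 0.23 ± 0.14 and the inhibitor *TIMP2* 0.06 ± 0.17, neither called. Of the 13 genes that the study names for combined treatment, all were called, 9 higher and 4 lower. The study chose them on these samples, so they are not independent evidence of their direction. Besides those given above, *IL1A* had 2.57 ± 0.42, and *WNT5B* had 2.94 ± 0.24 with all WT Ctr and WNK2 trans Sor libraries above all others.

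**Figure D4:**
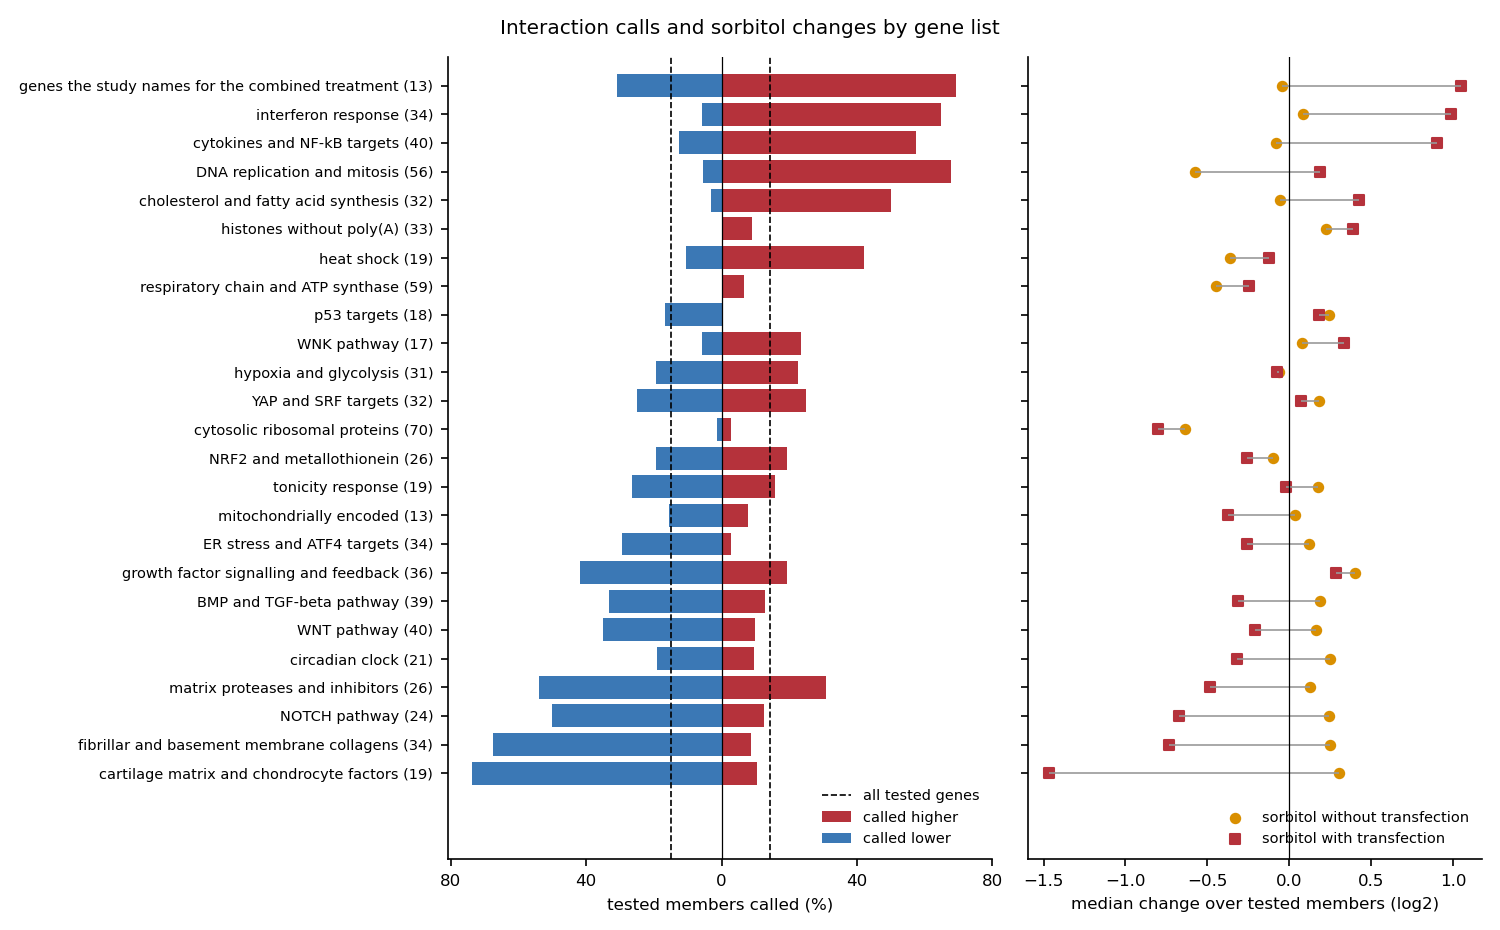
Gene lists, with the number of tested members in parentheses. On the left, bars show the percentage of members with an interaction called higher (red) or lower (blue), and dashed lines mark the same shares over all tested genes (14.3% and 14.8%). On the right, circles and squares show the median log2 sorbitol change without and with transfection. Cartilage matrix genes lie at −1.47 with and 0.30 without transfection, and interferon genes at 0.99 and 0.09.

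NOTCH receptors, ligands and targets had lower calls more often than higher ones. Of 24 tested members 12 were called lower (50%) and 3 higher (12.5%), with a median of −1.004. The receptor *NOTCH3* had 2411, 1294, 2312 and 2833 normalised counts in WT Ctr, 4200.3, 4262, 4175 and 3964 in WT Sor, 9095, 8443, 7489 and 8384 in WNK2 trans Ctr and 908, 328, 596 and 494 in WNK2 trans Sor. Its libraries fell to their lowest with both treatments and were highest with transfection alone (−4.76 ± 0.34, edgeR adjusted p = 1.21e-08). The ligand *JAG1* (−1.43 ± 0.13) and the target genes *HEY1* (−2.79 ± 0.25) and *NRARP* (−1.999 ± 0.25) were lower, while the coactivator *MAML3* (2.198 ± 0.40) was higher and *NOTCH2* had 0.596 ± 0.29 (edgeR adjusted p = 0.128).

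In the BMP and TGF-beta pathway 13 of 39 members were called lower (33.3%) and 5 higher (12.8%), with a median of −0.39. Targets and feedback inhibitors of SMAD signalling were lower. *ID1*, an inhibitor of differentiation induced by BMPs, had 3149, 2565, 2666 and 2099 normalised counts in WT Ctr, 3766, 3409.5, 3894 and 4073 in WT Sor, 3247, 3480.1, 4649.7 and 3099.6 in WNK2 trans Ctr and 902, 451, 677 and 591 in WNK2 trans Sor. The transfected sorbitol libraries lay below all others (−2.998 ± 0.25, edgeR adjusted p = 1.05e-07). *ID3* (−2.74 ± 0.33), *SMAD6* (−2.497 ± 0.24) and *SMAD7* (−1.703 ± 0.20) shared its sign. Secreted antagonists divided: *NOG*, noggin (4.06 ± 0.64), *GREM1*, gremlin (3.32 ± 0.19), and *FST*, follistatin (2.27 ± 0.27), were higher, and *CHRD*, chordin (−3.74 ± 0.57), was lower. *GREM1* had 2322, 2661, 2815 and 2881 in WT Ctr, 1838, 1884, 1930.2 and 1785 in WT Sor, 1056, 872, 786 and 1159 in WNK2 trans Ctr and 5443, 6357, 8285 and 6874 in WNK2 trans Sor, with no overlap between groups. The activin subunits *INHBA* and *INHBB* were the other members called higher (3.103 ± 0.15 and 4.01 ± 0.54), while the ligands *BMP4* and *TGFB2* had −0.19 and 0.15 and were not called.

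WNT genes had a median of −0.39, with 14 of 40 called lower (35%) and 4 higher (10.0%). Ligands went both ways: *WNT6* (−4.09 ± 0.48) and *WNT5A* (−1.13 ± 0.16) were lower, and *WNT5B* (2.94 ± 0.24) and *WNT7B* (2.295 ± 0.42) higher. Of the frizzled receptors 6 were called lower, between −2.09 (*FZD9*) and −0.83 (*FZD2*), and both of these lost their call under the correction for GC content and length. The target *AXIN2* had −0.37 ± 0.40 and *CTNNB1*, beta-catenin, 0.25 ± 0.13, neither called.

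Growth factor signalling had 15 of 36 members lower (41.7%) and 7 higher (19.4%), with a median of −0.33. The immediate early genes *EGR1* (−1.93 ± 0.32) and *EGR2* (−1.93 ± 0.55) and the receptors *FGFR3* (−2.44 ± 0.29), *FGFR4* (−2.66 ± 0.31) and *ERBB2* (−1.46 ± 0.23) were lower. The ligands *FGF5* (3.85 ± 0.38), *NRG1* (2.03 ± 0.22) and *HBEGF* (1.598 ± 0.16) and the AP-1 member *FOSL1* (1.34 ± 0.31) were higher. *DUSP6*, a phosphatase that reports ERK activity, rose with sorbitol in both arms (log2 0.75 and 0.51) and had −0.24 ± 0.15 (edgeR adjusted p = 0.25). YAP and SRF targets were called in both directions, 8 of 32 each (25%). The count called lower was 5 without WNK2 trans Ctr replicate 2. *F3*, *ANKRD1* (2.64 ± 0.23) and *AXL* (1.42 ± 0.14) were higher, and the contractile gene *TAGLN* (−1.04 ± 0.21) lower.

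**Figure D5:**
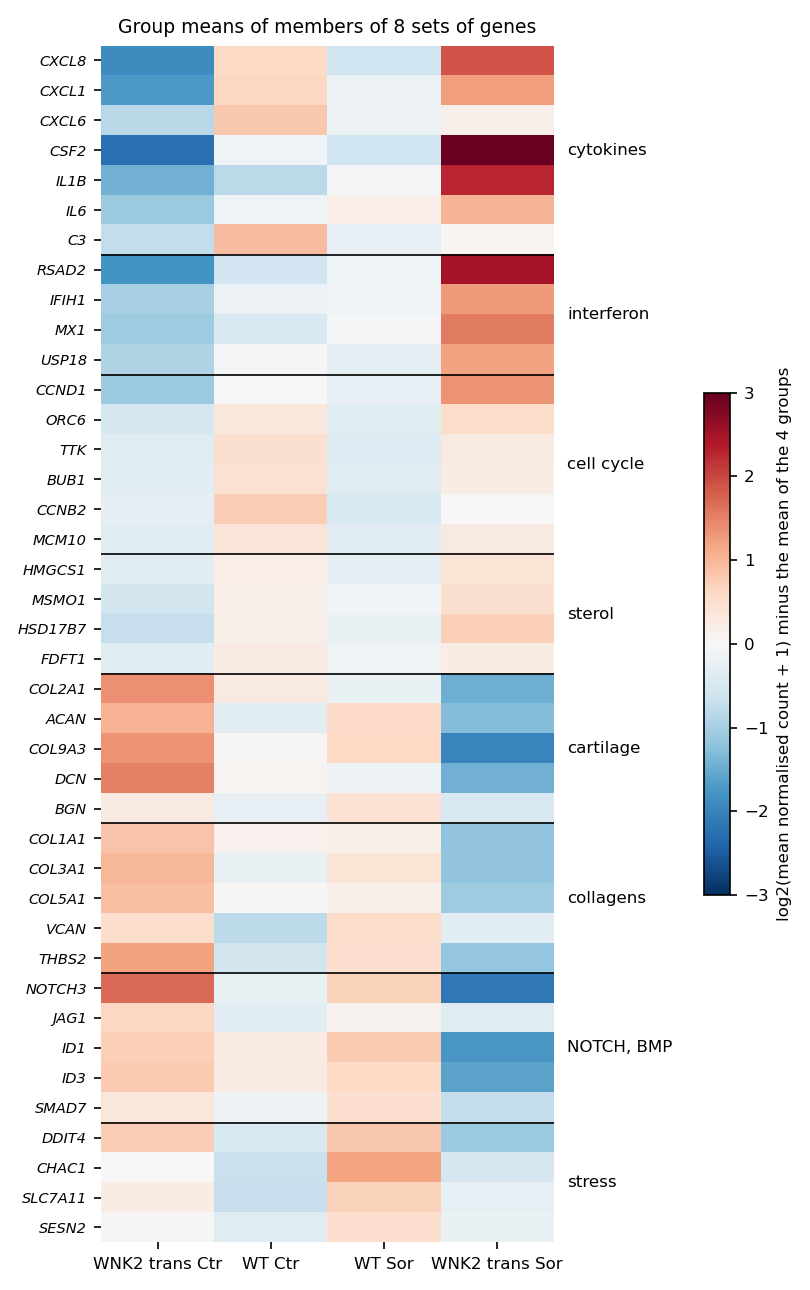
Group means of 40 genes in 8 sets, picked from the lists after their values were seen. Colour shows log2(mean normalised count + 1) minus the mean over the 4 groups, with the groups ordered as on the first principal component. The interferon genes shown are lowest in WNK2 trans Ctr and highest in WNK2 trans Sor, *COL2A1*, *COL3A1* and *NOTCH3* run the opposite way, and the stress genes are highest in WT Sor.

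Targets of ATF4 and of endoplasmic reticulum stress had 10 of 34 members called lower (29.4%) and 1 higher (2.94%), with a median of −0.28. *DDIT4*, an inhibitor of mTORC1, had 1014, 444, 515 and 698 normalised counts in WT Ctr, 1541, 1522, 1651 and 1672 in WT Sor, 1346, 1352, 1706 and 1711 in WNK2 trans Ctr and 687, 276, 348 and 382 in WNK2 trans Sor. Sorbitol raised it by log2 1.26 without transfection and lowered it by log2 −1.86 with transfection (−3.11 ± 0.35, edgeR adjusted p = 2.95e-06). *CHAC1* (−2.38 ± 0.43), the cystine transporter *SLC7A11* (−1.88 ± 0.50) and *SESN2* (−1.11 ± 0.24) rose with sorbitol without transfection and did not pass the test with it. Among p53 targets edgeR called 0 of 18 higher, with 1 at an unadjusted p under 0.05 and 1 called by DESeq2. By edgeR 3 were lower (16.7%, against 14.8% of all tested genes), including *BBC3* (−2.27 ± 0.51) and *GDF15* (−2.14 ± 0.31). Leaving out WT Ctr replicate 1 or WNK2 trans Sor replicate 1 gave 5 lower.

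The tonicity response, which loads cells with compatible osmolytes, had 3 of 19 members called higher (15.8%, against 14.3% of all tested genes) and 5 lower (26.3%, against 14.8%), with a median of −0.19. *AKR1B1*, aldose reductase, which makes sorbitol from glucose, had 8264, 9361, 6584 and 6666 normalised counts in WT Ctr, 21386, 22019, 22153 and 21991 in WT Sor, 4827, 4212, 5682 and 5077 in WNK2 trans Ctr and 30593, 23398, 21974 and 22444 in WNK2 trans Sor. It rose with sorbitol in both arms, by log2 1.504 without and 2.31 with transfection, an interaction of 0.81 ± 0.18 (edgeR adjusted p = 0.0027). The betaine transporter *SLC6A12* rose without transfection only (log2 2.29, against 0.55, interaction −1.74 ± 0.42). The water and glycerol channel *AQP3* (−2.05 ± 0.40) and the osmosensitive channel *TRPV4* (−1.22 ± 0.24) were lower. *NFAT5*, the transcription factor of this response, had an interaction of −0.01 ± 0.41.

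Of the WNK pathway, 4 of 17 tested members were called higher (23.5%, against 14.3% of all tested genes), or 7 without WNK2 trans Sor replicate 1, and 1 lower (5.88%, against 14.8%). *WNK2* itself is 1 of the 4, and the others were *NEDD4L*, a ubiquitin ligase of ion transporters (2.597 ± 0.19), and the effector kinases *STK39* (1.81 ± 0.16) and *OXSR1* (0.52 ± 0.15). *STK39* had 816, 993, 939 and 949 normalised counts in WT Ctr, 838, 832, 772 and 762 in WT Sor, 578, 632, 501 and 574 in WNK2 trans Ctr and 1412, 2016, 1711 and 1795 in WNK2 trans Sor. Only its transfected groups stood apart, below and above the untransfected ones. The other WNK kinases had interactions of −0.01 ± 0.21 (*WNK1*), −0.01 ± 0.24 (*WNK3*) and −0.24 ± 0.21 (*WNK4*), none called, with edgeR adjusted p of 0.99, 0.991 and 0.416. *WNK4* rose with sorbitol in both arms (log2 0.92 and 0.68). The cotransporter *SLC12A2* had 0.12 ± 0.26 (edgeR adjusted p = 0.769).

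Smaller groups followed. Clock genes had a median of −0.41, with 4 of 21 lower (19.0%, against 14.8% of all tested genes), among them *DBP* (−1.73 ± 0.50), *PER1* (−1.48 ± 0.27) and *TEF* (−1.25 ± 0.21), and 2 higher (9.52%, against 14.3%), *NPAS2* (2.17 ± 0.18) and *BHLHE41* (1.95 ± 0.30). The count called lower was 8 without WNK2 trans Sor replicate 1. *CLOCK*, a subunit of the activating complex, had 0.09 and was not called. In the hypoxia and glycolysis list 7 of 31 were higher (22.6%, against 14.3%) and 6 lower (19.4%, against 14.8%). Its members included *ADM*, adrenomedullin, at 3.01 ± 0.20 and the oxygen sensor *EGLN3* at −1.44 ± 0.34. In the NRF2 and metallothionein list 5 of 26 members were called higher and 5 lower, 19.2% each against 14.3% and 14.8% of all tested genes. The zinc-binding metallothioneins *MT2A* (3.02 ± 0.28) and *MT1E* (2.201 ± 0.30), which are close copies, were among those called higher. The NRF2 targets *NQO1* (−0.67 ± 0.18) and *HMOX1* (−0.84 ± 0.22) were among those called lower. The lower count was 8 without WT Ctr replicate 1 and 8 without WNK2 trans Sor replicate 1.

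The ribosomal, respiratory and histone lists had few calls, and the ribosomal and respiratory calls depended on single libraries. Histone genes had 3 of 33 members higher (9.09%, against 14.3% of all tested genes), or 3 to 5 when single libraries were left out. By edgeR 0 histone genes were lower, or 0 to 1 when single libraries were left out. Cytosolic ribosomal protein genes had 2 of 70 members higher (2.86%, against 14.3% of all tested genes) and 1 lower (1.43%, against 14.8%). Over the fits that leave out 1 library the lower count ran from 0 to 16, its highest without WNK2 trans Sor replicate 1. Sorbitol lowered 44 of them without transfection (median log2 −0.63) and 57 with it (−0.80). Nuclear genes of the respiratory chain had 4 of 59 higher (6.78%). The higher count ran from 0 to 9 when single libraries were left out, the highest without WNK2 trans Ctr replicate 3. By edgeR 0 of them were called lower, 1 was lower at an unadjusted p under 0.05, and DESeq2 called 0. That count was 9 without WNK2 trans Sor replicate 1 and 4 without WT Ctr replicate 1. Sorbitol lowered 24 of these without and 15 with transfection. Mitochondrially encoded genes had 1 of 13 higher (7.69%) and 2 lower (15.4%), or 5 lower without WNK2 trans Sor replicate 1. The histone counts in poly(A)-selected libraries summed to 325 to 356 CPM with transfection alone and 497 to 573 CPM with transfection and sorbitol, while untransfected libraries had 340.4 to 411 CPM in isotonic and 442 to 458 CPM in sorbitol media. The sorbitol groups lay above the isotonic ones in both arms, and the part of this in the results was not tested.

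Some genes responded to sorbitol alike as far as the test could tell. They were taken as those called in the same direction in both arms with an unadjusted interaction p above 0.5, and the 4 strongest in each direction are given. *GNA14*, a G protein subunit, had 4.4, 12.1, 12.1 and 10.9 normalised counts in WT Ctr, 193, 196, 309 and 232 in WT Sor, 5.8, 6.8, 4.1 and 16.8 in WNK2 trans Ctr and 218, 250.5, 196 and 284 in WNK2 trans Sor. Sorbitol raised it by log2 4.54 and 4.82, and its interaction was 0.27 ± 0.48. *PTGS2* had 2357, 3247, 3378 and 2941 in WT Ctr, 8732, 8728, 10123 and 9264 in WT Sor, 3767, 2470.3, 2034 and 3196 in WNK2 trans Ctr and 7985, 9307, 9286 and 8386 in WNK2 trans Sor. In both genes the sorbitol libraries lay above the isotonic ones whatever the transfection. The proteoglycan *SPOCK1* and the oncofetal antigen *TPBG* rose in both arms with interactions of 0.15 ± 0.23 and −0.05 ± 0.15. Among genes that fell in both arms, the ubiquitin ligase subunit *SKP2* had 0.001 ± 0.17, the homeobox gene *PKNOX2* 0.02 ± 0.19, the chemokine *CXCL16* −0.08 ± 0.20 and the ribosomal protein gene *RPL7*, which has many processed copies, −0.06 ± 0.19. An interaction that misses the threshold does not show equal changes, and these standard errors leave room for differences.

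The WNK2- cells, with exon 2 of *WNK2* deleted and never transfected, gave a sorbitol contrast that the interaction did not use. *WNK2* had means of 21.6 CPM in isotonic and 20.2 CPM in sorbitol WNK2- libraries. The groups labelled WT Sor and WNK2 trans Ctr had lower means, 16.9 and 13.2 CPM, and WT Ctr and WNK2 trans Sor had 133 and 172 CPM. In a joint fit of all 24 libraries, the 2244 genes with a higher interaction had a median sorbitol change of log2 0.08 in WNK2- cells. In the fit of the 16 wild-type-genotype libraries their median was −0.25 in untransfected and 0.67 in transfected cells. For the 2330 genes with a lower interaction the medians were −0.18 in WNK2- cells, 0.29 in untransfected and −0.85 in transfected wild-type cells. Over all 15738 genes the median was −0.01 in WNK2- cells. The interaction selected these genes by the difference of the wild-type arms, so the order of their wild-type medians was set in advance. Sorbitol in WNK2- cells was called in 28.4% of the genes with a higher interaction, 491 up and 146 down, and in 23.6% of those with a lower one, 104 up and 445 down. Across all tested genes it was called in 15.1%. The called direction in WNK2- cells was thus more often that of the interaction, and it was not set against either arm gene by gene. Over 16600 genes the Pearson correlation of the sorbitol change in WNK2- cells was 0.56 with that in transfected cells and 0.41 with that in untransfected cells, as a description across genes.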

How the data were processed

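Poly(A)-enriched RNA of T/C-28a2 chondrocytes was sequenced from NEBNext Ultra libraries. The authors deposited raw read counts per Ensembl gene, 1 file per library. The submitters' processing notes name FastQC 0.11.9, HISAT2 2.2.1, HTSeq 2.0.2, DESeq2 1.38.3 and build GRCh38. The annotation release and strand setting are not given in the sources used here. Symbols matched 62625 of 62703 identifiers.

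Groups followed the sample labels, and no replicate block was used. Genes passing edgeR's filterByExpr (minimum count 10, minimum total 15) were scaled by TMM and fitted with edgeR 4.0.16 quasi-likelihood models (R 4.3.3) over the 16 wild-type-genotype libraries, with p-values adjusted by Benjamini-Hochberg across every tested gene and a threshold of 0.05. The standard error of an interaction was taken as its absolute log2 value divided by the square root of the quasi-likelihood F statistic. Alternatives used DESeq2 1.42.0, other scalings, filters, corrections and omitted libraries. The fit was tested on simulated data, where it missed most small changes and its share of false calls lay above the nominal threshold. Total counts of 14153002 to 23239491 set the precision of low genes.

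The members and gene lists were chosen with earlier results of these data known. Named genes were *WNK2*, the 12 coding genes with the smallest p in each direction (at least 1 on the log2 scale, mean log2 CPM of at least 2), up to 5 called members per list, the 13 genes of the study, the other WNK kinases, and 8 genes without a detectable interaction. Promoters came from RefSeq (GRCh38.p14). Results for some list members are not reported here.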

Additional observations from a re-analysis of the deposited data

Results flagged for a closer look

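The sorbitol change differed with transfection in 4574 genes by the interaction test of edgeR, as described above.

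In 12 of the 212 groups of 4 libraries examined, over 53 named genes, 1 library stood far from the other 3. Each value is the gap of that library to its nearest neighbour divided by the range of the group, and values above Dixon's 95% limit for 4 libraries were listed. Chance lists about 1 in 20 groups. In WT Ctr, *IGFBP3* (0.923) and *ACAN* (0.881) were set apart by replicate 2 and *GNA14* (0.852) by replicate 1. In WT Sor, *HOTAIR* (0.944) and *MATN3* (0.889) were set apart by replicate 2 and *POSTN* (0.964) by replicate 3. The isotonic libraries labelled as transfected gave *ACAN* (0.839) for replicate 1, *TMOD1* (0.860) for replicate 2, and *KCNE4* (0.867) and *COMP* (0.874) for replicate 3. Under sorbitol with transfection they were *HOTAIR* (0.902) for replicate 1 and *TMOD1* (0.942) for replicate 4.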

How the results depend on the processing

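The interaction count ran from 3837 without WT Sor replicate 2 to 5772 without WNK2 trans Sor replicate 1 over the fits that leave out 1 library. It was 5897 with all 24 libraries in the fit and 2122 when a difference beyond 0.5 on the log2 scale was tested. The correction for GC content and length shared 3540 genes with the reported calls, 77.4% of them, and turned 7 to the opposite direction. Transfection averaged over media changed 780 genes by DESeq2, 906 with all 24 libraries in the fit and 1215 with the GC and length correction, and 213 to 928 when single libraries were left out. Sorbitol without transfection changed 1616 to 3060 genes when single libraries were left out. Transfection in isotonic media changed 2082 genes with all 24 libraries and 2237 with the GC and length correction, and 879 to 1656 when single libraries were left out. The correlation of the sorbitol changes was 0.12 without a filter, 0.076 with at least 10 counts in every library, and 0.16 to 0.27 when single libraries were left out. That of the transfection changes was −0.12, −0.63, and −0.50 to −0.41. The cause of these shifts was not tested. With a replicate block the interaction was called in 4668 genes, 4334 of them shared. The numbers do not pair the libraries, since same-numbered libraries correlated at −0.21 to 0.36 (median 0.01) over 24 pairs and 6 of 16 libraries correlated best with their own number. Median interactions of the p53, respiratory chain, ribosomal and YAP lists changed sign in at least 1 alternative.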
